A study of Mus musculus with 24 samples.

Results

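MIN6 cells, a mouse insulinoma line that makes and secretes insulin, were sequenced as polyadenylated RNA after transfection of a plasmid for EIF2A fused to GFP or for GFP alone. The values below describe replicate 1 of 4, which holds 6 of the 24 libraries: 3 labelled EIF2A and 3 labelled GFP, at 0, 1 and 3 h. All cells were grown in 22.2 mM glucose and were then given DMSO, the vehicle (the 0 h group), or 1 µM thapsigargin lasting 1 or 3 h. The members were taken by the column suffix 2 of the count table, which the sample titles number as replicate 1; the 9 EIF2A and 9 GFP libraries of replicates 2 to 4 carry the suffixes 3 to 5. Each construct has 1 library per time in replicate 1, so the 3 times served as pairs. MIN6 is a single tumour line, a plasmid is carried by the transfected cells only, and separate cultures are not stated for the replicates.

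EIF2A helps start protein synthesis by delivering initiator tRNA independently of the main factor eIF2, and it is a different protein from the eIF2 alpha subunit that stress kinases phosphorylate. Thapsigargin empties calcium from the endoplasmic reticulum (ER) by inhibiting the SERCA pump, which stresses that organelle and starts the unfolded protein response and the integrated stress response. A beta cell takes up and phosphorylates glucose, closes its potassium channels, admits calcium and releases insulin from dense granules, under transcription factors such as PDX1, MAFA and NKX6-1, and it keeps silent a group of housekeeping genes called disallowed genes. In bulk RNA, fewer cells of a type and less RNA per cell cannot be told apart.

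Eif2a, on mouse chromosome 3 (chr3:58525821-58557501, plus strand, GRCm38), was the check of the labels, and in replicate 1 it ran against them. It stood at 79.9, 96.7 and 105 CPM (counts-per-million, scaled by TMM) at 0, 1 and 3 h in the libraries labelled EIF2A, against 268, 363 and 360.4 CPM in those labelled GFP. In replicates 2 to 4 the libraries labelled EIF2A ran from 133 to 210 CPM (lowest and highest of 9, median 176) and those labelled GFP from 78.1 to 102 CPM (median 91.0). The replicate 1 GFP libraries thus held more Eif2a than any other library of the series. The mean log2 difference EIF2A minus GFP in replicate 1 was -1.81 (SD 0.08, 3 time pairs), with a 2-sided exact permutation p of 0.25, the smallest that 3 pairs can give. Counts of this kind do not separate plasmid transcripts from those of the cell's own gene. Groups are kept as labelled throughout, "the EIF2A libraries" and "the GFP libraries" mean libraries labelled so, and every direction below follows the labels.

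Total counts (in M, mega counts) of the replicate 1 libraries ran from 16.9 to 22.1 M (EIF2A) and from 17.4 to 21.5 M (GFP). In replicates 2 to 4 they ran from 10.5 to 16.6 M (EIF2A) and from 16.7 to 22.2 M (GFP). Each replicate 1 library was compared with the mean of each group of replicates 2 to 4 at its own time, as the root mean square log2 difference over genes, a description without a test. The EIF2A libraries of replicate 1 lay 0.309 to 0.333 from GFP and 0.864 to 0.893 from EIF2A, so they were nearest to the other label. The GFP libraries of replicate 1 lay 0.539 to 0.562 from EIF2A and 0.851 to 0.869 from GFP. Libraries of replicates 2 to 4 differed from the mean of the other libraries of their own group and time by 0.266 to 0.394 (EIF2A) and 0.194 to 0.243 (GFP). That mean holds fewer libraries than the mean used for replicate 1, so the distances are not strictly alike and near-ties decide nothing. The distance of the EIF2A libraries of replicate 1 to the GFP group was thus above the spread within that group at each time. It was inside the spread within the EIF2A group at 0 and 3 h and above it at 1 h (0.309, against 0.275 to 0.302), while the GFP libraries of replicate 1 were farther from the EIF2A group than either spread.

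**Figure D1:**
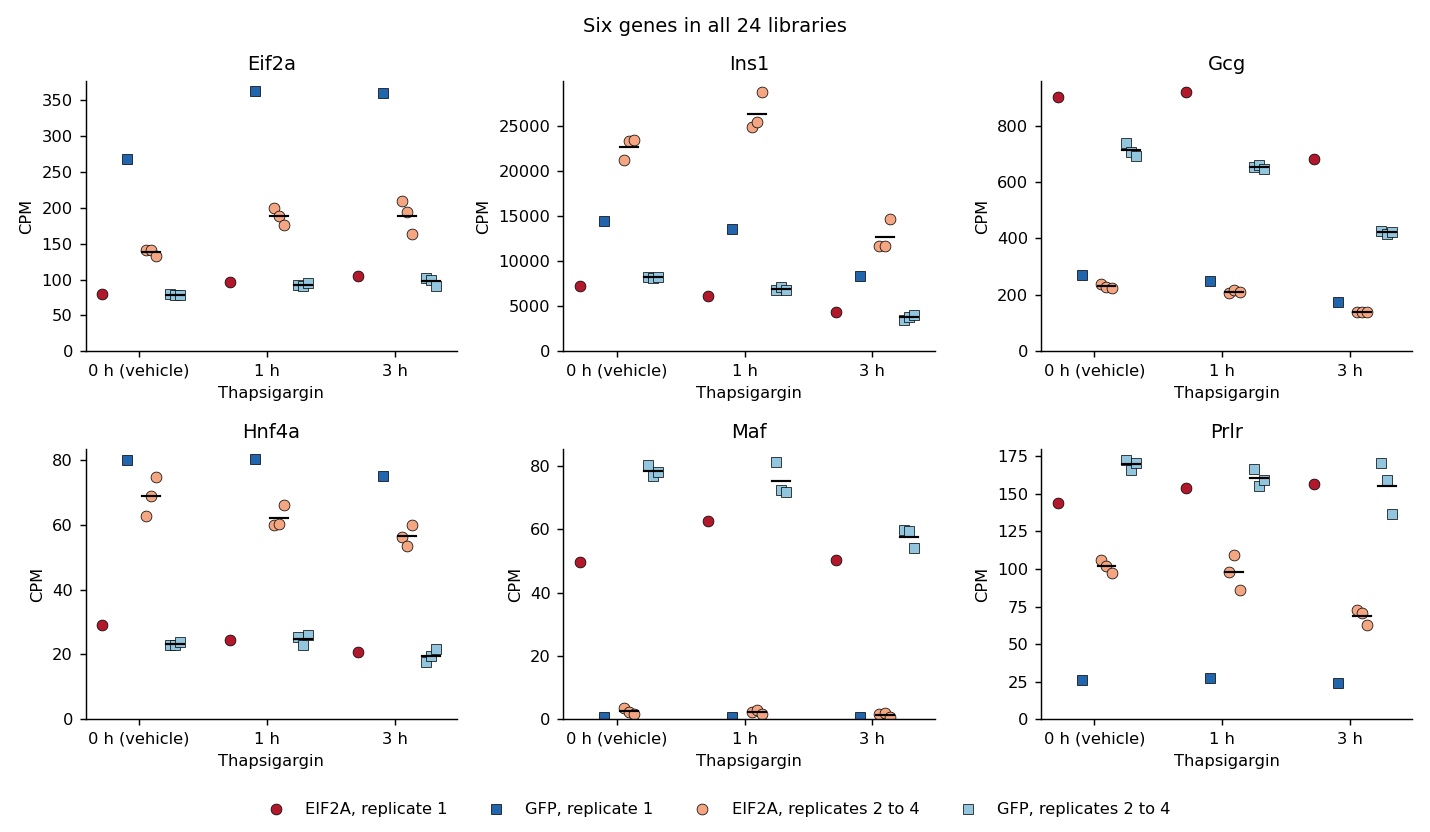
CPM (linear axes) of 6 genes in all 24 libraries by hours of thapsigargin. Circles are libraries labelled EIF2A and squares those labelled GFP, dark for replicate 1 and pale for replicates 2 to 4, whose means are the black bars. Replicate 1 circles lie near the pale squares for Eif2a, Hnf4a and Prlr, and replicate 1 squares lie above all pale circles for Eif2a and below all of them for Prlr.

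The beta cell genes that set the EIF2A libraries of replicate 1 apart from its GFP libraries fell into a low and a high side. Insulin 1, the glucose transporter Slc2a2 and the transcription factor Hnf4a were about 2- to 3-fold lower in EIF2A, and glucagon, Ucn3, Nnat, Prlr, Chga and the disallowed genes Aldh1a3 and Maf were higher. Of 13529 genes tested, 7939 (58.7%) passed an adjusted p of 0.05 in edgeR's quasi-likelihood test, 4028 higher (29.8%) and 3911 lower (28.9%) in EIF2A. The shares higher and lower are the background of the list counts that follow. With a change of at least 2-fold as well, 10.7% passed: 981 rose (7.25%) and 472 fell (3.49%). The median log2 fold change over all genes was 0.00 and its median size was 0.22. Values with ± are log2 fold changes EIF2A minus GFP with their standard error, from 3 time pairs with 2 residual degrees of freedom, so the p-values lean on the spread that edgeR shares among genes. All pairs come from a single replicate. However small, these p-values measure the spread of the difference between times, not between cultures or replicates.

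Hormones and secreted peptides went both ways: of 12 measured members of 16, 7 rose and 4 fell, with a list median of 0.76. Ins1, the rodent insulin gene on chromosome 19 (chr19:52264297-52265476, plus strand), had 7234, 6187 and 4382 CPM at 0, 1 and 3 h in EIF2A, against 14438, 13609 and 8333 CPM in GFP. The EIF2A library was lower at every time, by 1.01 ± 0.05 on the log2 scale (adjusted p = 2.66e-18). Ins2, the second insulin gene, had 51170, 43689 and 31292 CPM in EIF2A, against 60605, 55111 and 34264 CPM in GFP, a log2 difference of -0.23 ± 0.05 (adjusted p = 1.60e-04). That call was lost when the spread was taken from all 24 libraries (adjusted p = 0.0664). Ins1 and Ins2 are close paralogs, and how reads they share were counted is not given in the sources used here. Iapp, the amyloid peptide released with insulin, had 19955, 18735 and 15036 CPM in EIF2A, against 23847, 21465 and 16375 CPM in GFP (-0.18 ± 0.04), and lost its call without the 0 h libraries (adjusted p = 0.0799).

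The members that rose were Gcg, Sst, Ucn3, Cck, Vgf, Nnat and Adcyap1. Sst averaged under 1 CPM in both constructs, and Adcyap1 was at or under the floor of 3 counts in GFP, so both calls rest on low counts. Gcg, which encodes glucagon, had 900.4, 919 and 682 CPM in EIF2A, against 271, 248 and 175 CPM in GFP (1.87 ± 0.05). Ucn3, a peptide of mature beta cells on chromosome 13, had 16.6, 14.6 and 8.02 CPM in EIF2A, against 0.363, 0.292 and 0.0548 CPM in GFP (5.76 ± 0.22). Pooled over times that is 751 counts in EIF2A and 13 in GFP, a ratio of 57.3 on library totals (exact 95% interval 33.3 to 108, counting error only). Nnat, a small protein known to help process preproinsulin, had 578, 475 and 308 CPM in EIF2A, against 67.9, 61.2 and 40.1 CPM in GFP (3.01 ± 0.05). Cck, the gut and islet peptide cholecystokinin, had 2903, 2571 and 2247 CPM in EIF2A, against 2069, 1791 and 1419 CPM in GFP (0.57 ± 0.04). In none of these 4 genes did the EIF2A and GFP libraries of replicate 1 overlap.

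Glucagon is also the defining product of alpha cells, so the whole alpha cell marker list stands beside it. Of its 10 genes, 5 reached a mean of 1 CPM in both constructs of replicate 1 (Gcg, Irx1, Irx2, Ttr and Slc38a5), and the summed level ran from 2318 to 3167 CPM in EIF2A and from 1043 to 1612 CPM in GFP. Duct cell markers summed to 1121 to 1361 CPM in EIF2A and 596 to 752 CPM in GFP, with 7 of 11 genes at 1 CPM or more in each; the difference sat in Spp1 (osteopontin), at 432 to 544 CPM in EIF2A and 13.2 to 16.3 CPM in GFP. Macrophage markers summed to 56.1 to 98.0 CPM in EIF2A and 20.1 to 38.8 CPM in GFP, most of it C1qa, with 2 and 1 of 9 genes at 1 CPM. Mesenchymal markers reached 12.1 to 14.7 CPM in EIF2A and 4.23 to 7.06 CPM in GFP, with 4 and 2 of 13 genes at 1 CPM. Endothelial markers, with 3 of 8 genes at 1 CPM in each, summed to 20.1 to 25.04 CPM in EIF2A and 28.5 to 35.0 CPM in GFP. Acinar markers, with 2 of 15 in each, summed to 39.4 to 59.7 CPM in EIF2A and 35.6 to 42.1 CPM in GFP. Markers of delta, PP and epsilon cells, with 3 of 8 in each, summed to 205 to 207 CPM in EIF2A and 131 to 142 CPM in GFP. The part of other cell types in the hormone and receptor values was not tested.

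The 250 bases before the Ins1 start are shown because Ins1 is the insulin gene with the larger difference. They come from RefSeq on GRCm38.p6, chr19:52264047-52264296, plus strand, 5′ to 3′. Capitals mark TAAT, on either strand, the core letters that homeodomain factors such as PDX1 recognise. It occurs 3 times here, and 55.3% of 27025 mouse promoter windows of this length hold it at least once.
Ins1: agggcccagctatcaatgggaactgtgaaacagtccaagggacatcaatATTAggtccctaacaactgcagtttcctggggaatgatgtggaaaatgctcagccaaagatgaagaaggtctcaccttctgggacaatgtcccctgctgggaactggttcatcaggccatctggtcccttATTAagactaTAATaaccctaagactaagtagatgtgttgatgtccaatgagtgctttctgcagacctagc

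Transcription factors of the beta cell split almost evenly: of 28 measured members of 32, 11 rose and 12 fell, and the list median was 0.09. The clearest drop was in Hnf4a, a nuclear receptor mutated in a form of inherited diabetes, at 29.2, 24.5 and 20.6 CPM in EIF2A, against 80.1, 80.3 and 74.9 CPM in GFP (-1.66 ± 0.07). Pax6, which maintains islet hormone genes, had 439.8, 528 and 476 CPM in EIF2A, against 706, 803 and 787 CPM in GFP (-0.66 ± 0.04). Both were lower in EIF2A at every time, without overlap. Pdx1, the main activator of the insulin genes, had 277, 279.8 and 232 CPM in EIF2A, against 309, 348 and 303 CPM in GFP (-0.28 ± 0.04), and Neurod1, a partner in insulin transcription, fell by 0.30 ± 0.05. On the high side were Glis3 (0.79 ± 0.08), an insulin gene activator, Etv1 (0.62 ± 0.05), an ETS factor, and Insm1 (0.58 ± 0.05), an endocrine zinc finger factor. Insm1 had 217, 274 and 356 CPM in EIF2A, against 163, 179.6 and 223 CPM in GFP.

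Mafa and Nkx6-1, markers of mature beta cells, did not pass. Mafa had 283, 308 and 338 CPM in EIF2A, against 224, 235 and 186 CPM in GFP, a log2 difference of 0.54 ± 0.15 (adjusted p = 0.0798 by edgeR). EIF2A was above GFP at each time, and the gap was widest at 3 h. Mafa passed under 6 alternatives, among them DESeq2 (adjusted p = 0.00341) and the fit without the 3 h libraries (0.38 ± 0.05, adjusted p = 6.45e-15 by edgeR). Nkx6-1 had 295, 300.4 and 220.2 CPM in EIF2A, against 288, 262 and 224 CPM in GFP (0.08 ± 0.05, adjusted p = 0.130 by edgeR). Its sign turned between 1 and 3 h, and without the 3 h libraries it passed (0.14 ± 0.05, adjusted p = 0.00695 by edgeR).

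Genes of glucose sensing and excitation were more often lower in EIF2A: of 29 measured, 14 fell and 8 rose, with a list median of -0.14. Slc2a2, the GLUT2 transporter that admits glucose, had 46.3, 51.0 and 33.6 CPM in EIF2A, against 96.1, 95.3 and 62.0 CPM in GFP (-0.94 ± 0.06). The groups did not overlap. G6pc2, the islet glucose-6-phosphatase, had 3726, 3334 and 1964.5 CPM in EIF2A, against 5041, 4297 and 2603 CPM in GFP (-0.39 ± 0.04). The 2 subunits of the ATP-sensitive potassium channel, Kcnj11 and Abcc8, each fell by 0.23 (± 0.05 and ± 0.04).

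The members that rose were other channels. Itpr3, an inositol trisphosphate receptor that releases calcium from the ER, had 13.8, 14.7 and 13.4 CPM in EIF2A, against 2.18, 2.68 and 1.48 CPM in GFP (2.72 ± 0.14). Kcnk16, the background potassium channel TALK-1, had 8.86, 12.1 and 9.11 CPM in EIF2A, against 2.24, 3.31 and 2.58 CPM in GFP (1.89 ± 0.14). Cacna1a, a P/Q-type calcium channel subunit, had 13.3, 13.1 and 16.3 CPM in EIF2A, against 4.29, 4.09 and 4.002 CPM in GFP (1.79 ± 0.12). All 3 were higher in EIF2A at every time.

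Of 24 receptor genes, 21 were measured; 5 rose and 7 fell, with a list median of -0.09. Prlr, the prolactin receptor through which beta cells expand in pregnancy, had 144, 154 and 157 CPM in EIF2A, against 26.0, 27.3 and 24.3 CPM in GFP (2.56 ± 0.06). Glp1r, the receptor of the incretin GLP-1, had 57.0, 56.6 and 42.6 CPM in EIF2A, against 22.1, 27.7 and 22.9 CPM in GFP (1.11 ± 0.07). Neither gene's groups overlapped. Ghr, the growth hormone receptor, had 147, 143 and 124 CPM in EIF2A, against 111, 106 and 94.6 CPM in GFP (0.42 ± 0.05). Lower in EIF2A were Ptger3, a prostaglandin E2 receptor (-1.43 ± 0.12), and Sstr5, a somatostatin receptor (-0.95 ± 0.10), both of which couple to inhibitory G proteins. Ffar1, the fatty acid receptor GPR40, was at 24.6 to 39.2 CPM in EIF2A and 29.2 to 35.0 CPM in GFP, a log2 difference of -0.01 ± 0.08 (adjusted p = 0.894 by edgeR).

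Of 43 measured granule and exocytosis genes out of 44, 21 rose and 15 fell, with a list median of 0.09. Chga, the granule protein chromogranin A, had 11757, 11958 and 9659 CPM in EIF2A, against 4996, 5248 and 4037 CPM in GFP (1.24 ± 0.04). Ptprn, the granule membrane protein IA-2, had 1248, 1217 and 1037.5 CPM in EIF2A, against 645, 661 and 518 CPM in GFP (0.95 ± 0.04). Syt13, a synaptotagmin, rose by 0.70 ± 0.04 and Syt7, a calcium sensor of granule fusion, fell by 0.77 ± 0.04. Among the enzymes that cut proinsulin, Pcsk1 had 437.5, 583 and 515 CPM in EIF2A, against 260.0, 408 and 332 CPM in GFP (0.64 ± 0.04). Pcsk2 overlapped between the groups, at 1502, 1910.3 and 1614.5 CPM in EIF2A and 1445, 2064 and 1670.0 CPM in GFP (-0.03 ± 0.04, adjusted p = 0.591 by edgeR). Slc30a8, the zinc transporter of the granule, rose by 0.26 ± 0.04.

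Of 27 genes disallowed in beta cells, 19 were measured; 10 rose and 6 fell in EIF2A, with a list median of 0.59. Aldh1a3, a retinaldehyde dehydrogenase that marks failing beta cells (chr7:66390890-66427517, minus strand, GRCm38), had 11.4, 12.2 and 16.9 CPM in EIF2A, against 0, 0.146 and 0 CPM in GFP. That is 762 counts in EIF2A and 3 in GFP, a ratio of 252 on library totals (exact 95% interval 85.9 to 1225, counting error only). Maf (c-MAF), a factor known to activate the glucagon gene (chr8:115682942-115707794, minus strand), had 49.8, 62.7 and 50.2 CPM in EIF2A, against 0.605, 0.535 and 0.822 CPM in GFP (6.39 ± 0.13). Acot7, an acyl-CoA thioesterase, had 6.83, 7.37 and 7.79 CPM in EIF2A, against 0.363, 0.438 and 0.274 CPM in GFP (4.33 ± 0.23). Lmo4 (1.58 ± 0.13), a LIM-only cofactor, and Slc16a1 (0.84 ± 0.06), the MCT1 transporter of lactate and pyruvate, rose as well. Ldha, lactate dehydrogenase A, went the other way, at 1010.3, 868 and 667 CPM in EIF2A, against 1375, 1359 and 923 CPM in GFP (-0.51 ± 0.04).

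**Figure D2:**
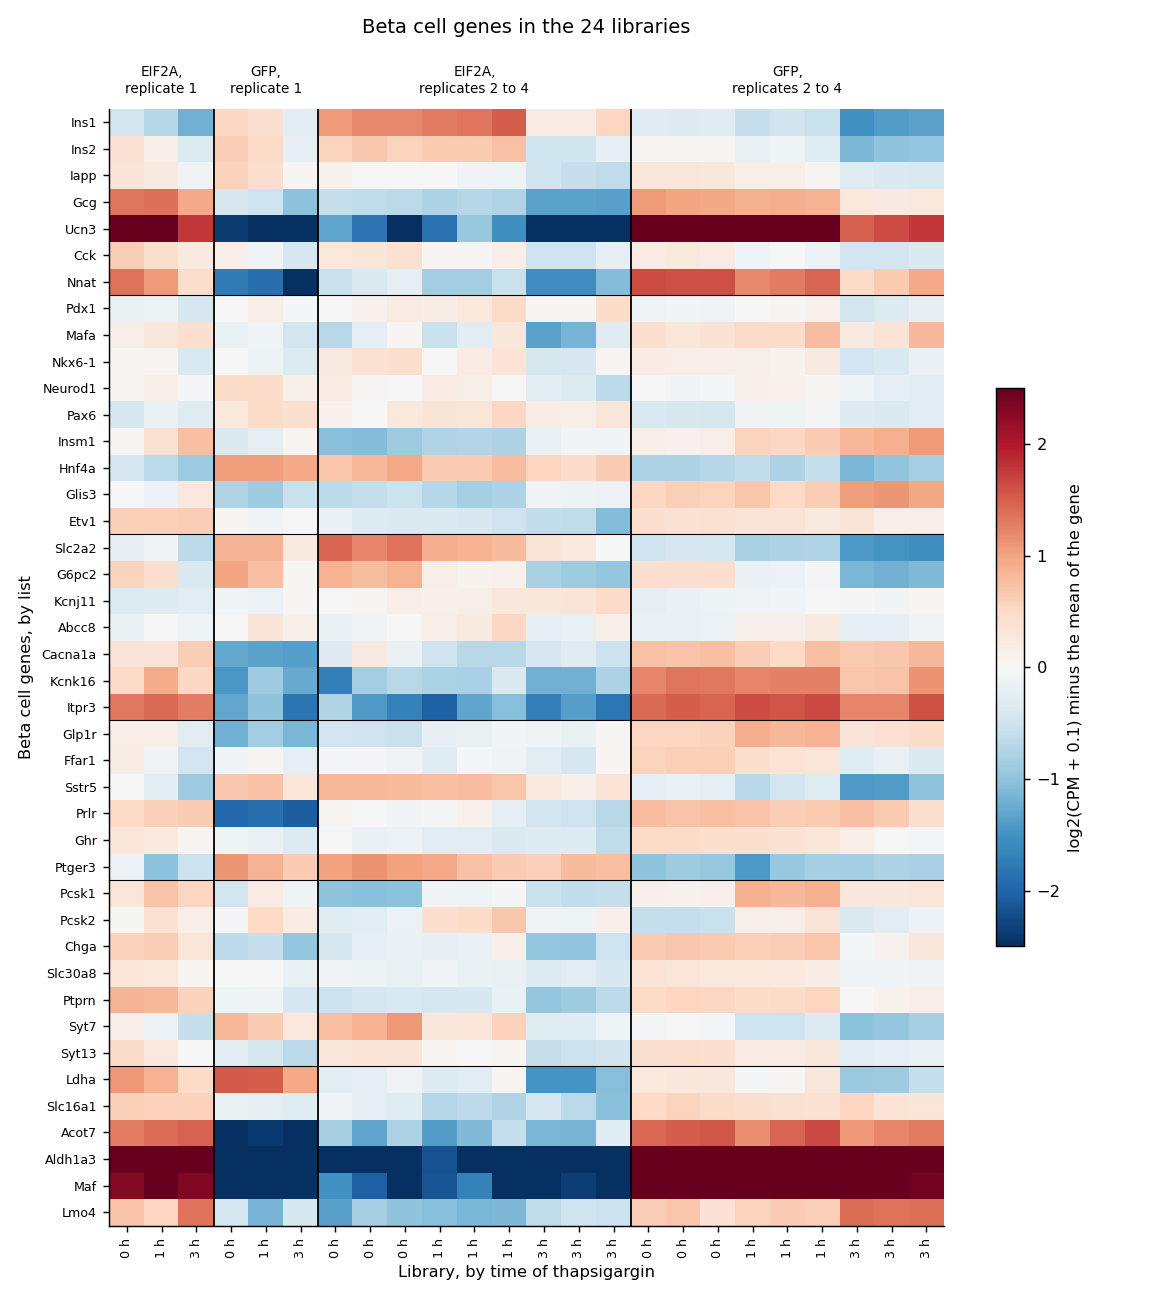
Named beta cell genes (rows, by list, lines between lists) in the 24 libraries (columns, by label, replicate class and hours of thapsigargin). Colour is log2(CPM + 0.1) minus the mean of the gene over all libraries, with colours saturated at the ends of the scale. Columns of EIF2A in replicate 1 share the colours of GFP in replicates 2 to 4 in most rows, while GFP in replicate 1 differs from EIF2A in replicates 2 to 4 in rows such as Ldha, Prlr and Iapp.

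Over all genes, the 8 largest rises, over genes that averaged 5 CPM or more and did not overlap, were in Aldh1a3, described above, Fnbp1l, Bcat1, Rab25, Stk39, Emp1, Jakmip2 and Ildr2. Each had 29 counts or fewer over the 3 GFP libraries of replicate 1. Fnbp1l, an F-BAR protein of membrane curvature, had 23.8, 23.9 and 23.4 CPM in EIF2A, against 0.181, 0.146 and 0.384 CPM in GFP. Bcat1, the cytosolic branched-chain aminotransferase, had 38.0, 38.9 and 74.7 CPM in EIF2A, against 0.363, 0.438 and 0.768 CPM in GFP. The ratios of pooled counts of these 8 genes ran from 88.8 (Ildr2) to 252 (Aldh1a3). The largest drops were in Ano1, a calcium-activated chloride channel, at 0.620, 0.599 and 0.286 CPM in EIF2A, against 22.9, 23.2 and 18.3 CPM in GFP (-5.38 ± 0.16), and in Myo7b, Sult1d1, Fbp2, Ffar4, Cdhr5, Lgals2 and Igfbp2. Fbp2, the muscle form of fructose bisphosphatase, had 7.45, 8.89 and 7.85 CPM in EIF2A, against 76.3, 81.1 and 69.2 CPM in GFP.

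This on or off pattern was counted by a rule added after the values were seen. In replicate 1, 65 genes had at least 1 CPM in every EIF2A library and at most 3 counts in each GFP library, and 2 genes (Adamts16 and Nkain4) had the reverse. Of the 65, 48 also reached 1 CPM in all 9 GFP libraries of replicates 2 to 4, and 25 had at most 3 counts in each of the 9 EIF2A libraries there. The matching shares among all genes were not counted, so 48 and 25 have no background and are a description only. The 65 genes include Aldh1a3, Emp1, Opn5, Nptx2, Kit, Twist1, Thy1 and Fbn1, of which only Thy1 is among the 25. Kit, the stem cell factor receptor, had no count in the GFP libraries of replicate 1 and a mean of 3.24 CPM in EIF2A.

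ER chaperones were called in 1 direction: 17 of 19 measured members rose in EIF2A and none fell, with a list median of 0.46 and a background of 29.8% rising among all genes. The other 2, Dnajb9 and Herpud1, did not pass. Within replicates 2 to 4, 5 of the 19 rose and 10 fell in EIF2A relative to GFP (list median -0.11). Among all genes there, 38.8% rose and 41.4% fell. The 5 that rose there (Hsp90b1, Calr, Creld2, Ppib and Fkbp2) also rose in replicate 1. Hspa5 (BiP), the main ER chaperone, had 1484, 1737 and 1939.9 CPM in EIF2A, against 1348, 1523 and 1516 CPM in GFP (0.24 ± 0.04). Sdf2l1 (0.65 ± 0.05), a BiP cofactor, and Manf (0.48 ± 0.04), a secreted ER stress protein, rose too. These chaperones, like the stress genes that follow, were picked outside the naming rule, after their values were seen. Integrated stress response targets were mixed: of 30 measured, 9 rose and 5 fell, beside 29.8% of all genes rising and 28.9% falling. Nupr1, a stress-induced chromatin protein, rose by 1.25 ± 0.06, and Atf3, an early stress transcription factor, fell by 0.99 ± 0.10. Ddit3 (CHOP), which promotes death after long stress, had 46.8, 103 and 266 CPM in EIF2A, against 85.0, 125 and 290.4 CPM in GFP (-0.37 ± 0.20, adjusted p = 0.254 by edgeR).

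The response to thapsigargin itself was present in both constructs of replicate 1 and has no test, since each group holds 1 library. The median log2 change of the 30 stress response targets at 3 h relative to 0 h was 1.14 in EIF2A and 0.75 in GFP of replicate 1. In replicates 2 to 4 the group means gave 1.28 in EIF2A and 1.42 in GFP. Over all 13867 genes the median was 0.01 in both constructs of replicate 1. Ins1 at 3 h stood 0.72 below 0 h in EIF2A and 0.79 below in GFP of replicate 1, and Ins2 stood 0.71 and 0.82 below. Maf, Hnf4a and Prlr kept their gap between the constructs at all 3 times.

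Many of the same genes separated the constructs in the other replicates, mostly with the opposite sign. Of 13512 genes tested in both fits, 1440 differed by at least 2-fold and passed in replicate 1, and 1687 did so in replicates 2 to 4, where 80.2% of all genes passed at any fold and 13.4% at 2-fold. In both were 1047 genes, 72.7% of the replicate 1 list and 62.1% of the other, and all 1047 had opposite signs. At any fold, 6785 genes passed in both, 5854 with opposite and 931 with the same sign. No library is on a side of both contrasts, but the values for replicates 2 to 4 come from the fit to all 24 libraries, in which those of replicate 1 share the time terms and the estimate of spread. The difference of the construct effects itself passed for 10124 of 13867 genes (73.0%). For Eif2a it was -2.75 ± 0.09 (adjusted p = 1.60e-22 by edgeR), from -1.81 in replicate 1 and 0.94 in replicates 2 to 4.

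**Figure D3:**
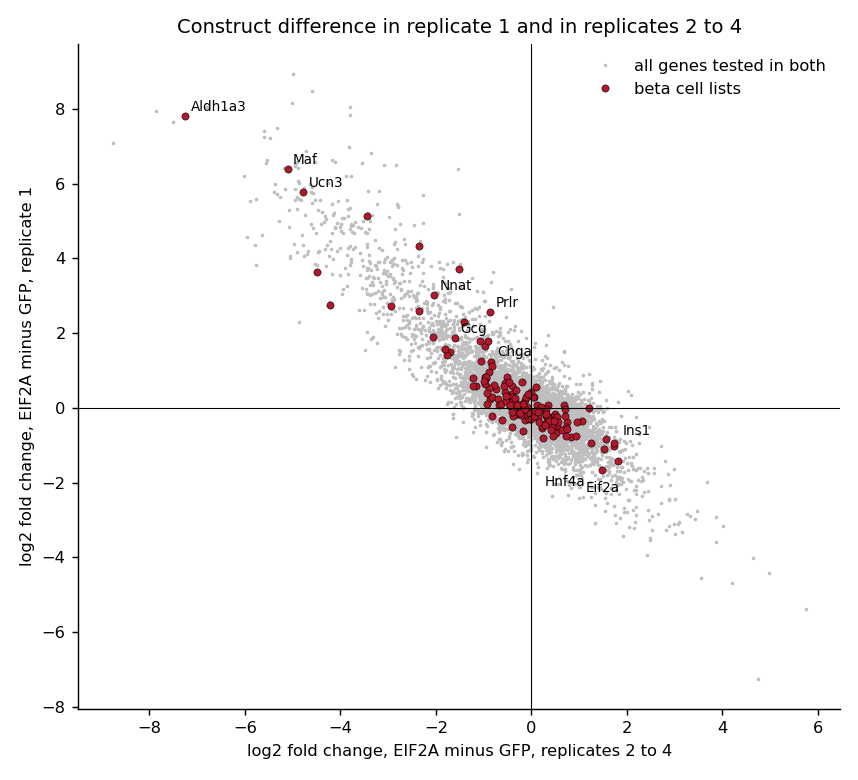
Log2 fold change EIF2A minus GFP of each gene tested in both fits, in replicate 1 (vertical, 3 time pairs) against replicates 2 to 4 (horizontal, 9 libraries a side). Grey points are all genes and red points the 6 beta cell lists. The points run along a falling diagonal, with Aldh1a3, Maf and Ucn3 at the upper left and Ins1, Hnf4a and Eif2a at the lower right.

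The GFP libraries of replicate 1 were then set against the EIF2A libraries of replicates 2 to 4 that they resemble. They had more Eif2a, more Bnip3, Ldha and Slc16a3, and less of Ins1, Glp1r, Prlr and the nuclear noncoding RNA Malat1. Of 13867 genes, 8817 passed (63.6%), 4410 higher (31.8%) and 4407 lower (31.8%) in GFP replicate 1. At 2-fold or more 416 rose (3.00%) and 404 fell (2.91%), and the median size of the log2 difference was 0.32. Eif2a was higher by 0.93 ± 0.06 (adjusted p = 2.02e-14 by edgeR), at 268, 363 and 360.4 CPM, against means of 138 ± 4.67, 188 ± 12.1 and 189 ± 23.4 CPM at 0, 1 and 3 h (SD, n = 3 each) in EIF2A replicates 2 to 4. All values with ± SE in this comparison are log2 differences GFP replicate 1 minus EIF2A replicates 2 to 4, from a fit to all 24 libraries with 18 residual degrees of freedom. Replicate 1 is a single replicate taken at 0, 1 and 3 h. The p-values here and in the comparisons below thus do not measure the spread between replicates of its kind.

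The 8 largest rises in GFP replicate 1, under the same rule of level and overlap, were in Bnip3, Ak4, Lfng, Ero1l, Mgarp, Slc16a3, Serpina1d and Sult1d1. Bnip3, a mitophagy receptor (chr7:138890836-138909519, minus strand), had 465, 459 and 424 CPM in GFP replicate 1, against means of 97.9 ± 2.09, 69.8 ± 1.77 and 51.7 ± 2.29 CPM in EIF2A replicates 2 to 4 (SD, n = 3 each). The log2 difference was 2.68 ± 0.07 (adjusted p = 1.50e-22 by edgeR). Slc16a3, the MCT4 lactate exporter, had 450.1, 341 and 147 CPM, against a range of 15.2 to 167 CPM over the 9 libraries (median 85.7), a difference of 2.18 ± 0.22. Ero1l, the oxidase that feeds disulfide formation in the ER, had 137.5, 126 and 95.9 CPM, against 21.2 to 28.0 CPM (median 24.6), a difference of 2.28 ± 0.06. Ak4, a mitochondrial adenylate kinase, had 63.1, 46.8 and 36.0 CPM, against 4.33 to 19.6 CPM (2.38 ± 0.16), and Ldha had 1375, 1359 and 923 CPM, against 170.4 to 501 CPM (1.88 ± 0.11). For all 5 genes GFP replicate 1 lay above every EIF2A library of replicates 2 to 4 at the same time.

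Several of these genes are known targets of hypoxia-inducible factors, so 34 such genes were listed after the values had been seen, and the list is a description only. Of 31 measured, 30 rose and none fell in GFP replicate 1 relative to EIF2A replicates 2 to 4 (list median 0.99, all genes -0.01, background 31.8% rising). Within replicate 1, 3 of the 31 rose and 27 fell in EIF2A relative to GFP, with a list median of -0.60. Between EIF2A replicate 1 and GFP replicates 2 to 4, 20 rose and 2 fell (median 0.55, with 13.6% of all genes rising and 13.8% falling). Within replicates 2 to 4, 6 rose and 16 fell in EIF2A relative to GFP (median -0.16, with 38.8% of all genes rising and 41.4% falling). Pgk1, a glycolytic kinase, had 713, 708 and 530.3 CPM in GFP replicate 1, against 157 to 289.5 CPM in EIF2A replicates 2 to 4.

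Promoters are shown for 4 of the 8 genes that rose most in replicate 1 over both constructs, those with exactly 1 promoter entry, because these genes moved together. Each is the 250 bases before the start from RefSeq on GRCm38.p6, 5′ to 3′ on the strand of the gene: Bnip3 at chr7:138909507-138909756 (minus), Slc16a3 at chr11:120948817-120949066 (plus), Lfng at chr5:140607091-140607340 (plus) and Mgarp at chr3:51396548-51396797 (minus). Capitals mark ACGTG or its reverse complement, core letters of the element that hypoxia-inducible factors recognise; where the string reads the same on both strands, one 6-letter run holds a match on each. There are 2 matches in Bnip3, Slc16a3 and Lfng and 1 in Mgarp. Of 27025 promoter windows of this length, 4477 (16.6%) hold a match, and of the 29 listed hypoxia genes with a window, 16 (55.2%) do. The listed genes were chosen as known targets of these factors, so a high share can follow from that choice and tests nothing in these libraries.
Bnip3: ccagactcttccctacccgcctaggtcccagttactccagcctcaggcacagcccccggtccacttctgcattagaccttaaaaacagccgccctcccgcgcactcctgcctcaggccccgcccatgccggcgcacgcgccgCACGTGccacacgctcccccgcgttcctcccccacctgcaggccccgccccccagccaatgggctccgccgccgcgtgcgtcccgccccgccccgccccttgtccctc
Slc16a3: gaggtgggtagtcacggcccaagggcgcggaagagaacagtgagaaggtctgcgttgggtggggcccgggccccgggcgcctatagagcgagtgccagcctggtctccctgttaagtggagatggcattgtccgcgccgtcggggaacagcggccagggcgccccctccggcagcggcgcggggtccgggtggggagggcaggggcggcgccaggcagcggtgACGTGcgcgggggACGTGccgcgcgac
Lfng: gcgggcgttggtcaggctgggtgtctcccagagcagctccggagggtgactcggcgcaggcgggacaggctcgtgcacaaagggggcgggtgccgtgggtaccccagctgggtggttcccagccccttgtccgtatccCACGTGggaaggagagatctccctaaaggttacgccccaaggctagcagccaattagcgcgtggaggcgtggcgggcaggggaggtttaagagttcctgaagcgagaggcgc
Mgarp: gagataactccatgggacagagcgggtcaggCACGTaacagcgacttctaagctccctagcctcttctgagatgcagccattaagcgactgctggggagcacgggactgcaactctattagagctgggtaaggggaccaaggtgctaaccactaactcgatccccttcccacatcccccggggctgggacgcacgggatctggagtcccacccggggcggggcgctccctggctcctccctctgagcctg

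The largest drops in GFP replicate 1 relative to EIF2A replicates 2 to 4 were in Igfbpl1, A930013F10Rik, Cox6a2, Malat1, Pdzrn4, Tdh, Kcnq1ot1 and Prlr. Igfbpl1, related to the insulin-like growth factor binding proteins, had 0.907, 0.681 and 0.439 CPM, against 4.74 to 8.42 CPM (-3.35 ± 0.18). Malat1, an abundant noncoding RNA kept in the nucleus (chr19:5795690-5802672, minus strand), had 1395, 925 and 664 CPM, against means of 5325 ± 898, 5002 ± 517 and 2442 ± 449 CPM (SD, n = 3 each), a log2 difference of -2.09 ± 0.16. Kcnq1ot1, an imprinted noncoding RNA, had 17.7, 14.0 and 11.2 CPM, against 36.2 to 75.2 CPM (-1.99 ± 0.11). Cox6a2, the muscle form of a cytochrome oxidase subunit, had 5.56, 5.99 and 7.24 CPM, against 26.9 to 42.7 CPM (-2.34 ± 0.11). None of these 4 overlapped at any time. Of 8 nuclear noncoding RNAs listed after the values were seen, 5 fell and 1 rose, beside 31.8% of all genes falling and 31.8% rising.

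The share of reads outside any gene was 10.7 to 11.8% in GFP replicate 1, 13.3 to 17.9% in EIF2A replicates 2 to 4 (median 15.2%), 11.1 to 12.04% in EIF2A replicate 1 and 10.9 to 13.0% in GFP replicates 2 to 4. Malat1 in the other classes stood at 819, 667 and 543 CPM in EIF2A replicate 1 and 409 to 1076 CPM in GFP replicates 2 to 4. The EIF2A libraries of replicates 2 to 4 stood above the other classes in this share and in Malat1, and they are also the shallowest. The other listed noncoding RNAs did not all follow: EIF2A minus GFP within replicates 2 to 4 was 1.87 ± 0.07 for Kcnq1ot1 but -0.22 ± 0.06 for Neat1, -1.58 ± 0.07 for Rian and 0.03 ± 0.07 for Meg3 (adjusted p = 0.729 by edgeR). The part of this share in the differences above was not tested.

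**Figure D4:**
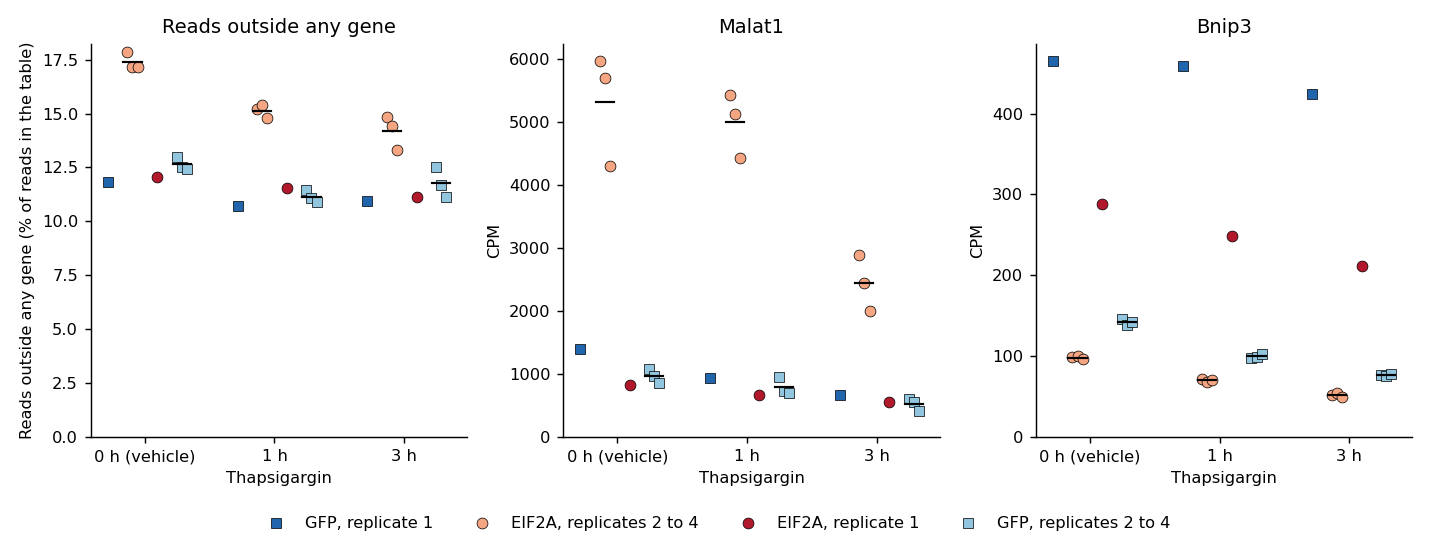
Share of reads outside any gene (percent), and Malat1 and Bnip3 levels (CPM, linear axes), in all 24 libraries by hours of thapsigargin. Circles are libraries labelled EIF2A and squares those labelled GFP, dark for replicate 1 and pale for replicates 2 to 4, whose means are the black bars. EIF2A replicates 2 to 4 are highest in the first 2 panels, and replicate 1 of both labels is highest for Bnip3.

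Beta cell genes differed between these 2 classes in both directions, as did all genes, of which 31.8% were higher and 31.8% lower in GFP replicate 1. Those shares are the background of the list counts below, which were not tested against it. Ins1 was 14438, 13609 and 8333 CPM in GFP replicate 1, against means of 22637 ± 1259.8, 26331 ± 2097 and 12673 ± 1755 CPM in EIF2A replicates 2 to 4 (SD, n = 3 each), a log2 difference of -0.75 ± 0.09 (adjusted p = 5.33e-08 by edgeR). GFP replicate 1 was below every one of those libraries at the same time. Ins2 did not pass (-0.01 ± 0.08, adjusted p = 0.933 by edgeR). Iapp was higher, at 23847, 21465 and 16375 CPM, against 10350.3 to 17191 CPM over the 9 libraries (0.53 ± 0.05). Of 13 measured hormones 3 rose and 4 fell; Nnat was lower by 1.22 ± 0.10 and Gcg higher by 0.25 ± 0.05. Ucn3, with 13 counts in all in GFP replicate 1, had a fitted difference of -1.10 ± 0.43 (adjusted p = 0.0267 by edgeR), a call lost without any single time of replicate 1 (adjusted p = 0.0557, 0.0809 and 0.0678 without 0, 1 and 3 h) or without replicate 3 (0.120).

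G6pc2 was higher in GFP replicate 1 by 0.58 ± 0.09, and at each time it was above the EIF2A libraries of the same time in replicates 2 to 4. Slc2a2 (-0.17 ± 0.08, adjusted p = 0.0738 by edgeR) and Abcc8 (0.09 ± 0.07, adjusted p = 0.280) did not pass, though Slc2a2 did without the 3 h libraries of replicate 1 (-0.25 ± 0.09, adjusted p = 0.0253) or without replicate 4 (0.0255), and Abcc8 without replicate 4 (0.19 ± 0.05, adjusted p = 0.00122). Of 29 glucose sensing genes 11 rose and 9 fell. Prlr had 26.0, 27.3 and 24.3 CPM in GFP replicate 1, against 62.7 to 109 CPM over the 9 libraries (-1.78 ± 0.11). Glp1r was lower by 0.85 ± 0.11. Of 21 receptors 7 rose and 7 fell.

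Among 29 transcription factors 12 rose and 8 fell in GFP replicate 1. Insm1 (0.44 ± 0.07), Neurod1 (0.41 ± 0.07) and Hnf4a (0.33 ± 0.07) were higher, and Nkx6-1 was lower by 0.26 ± 0.08, a call lost without the 1 h libraries of replicate 1 (adjusted p = 0.0815 by edgeR). Pdx1 did not pass (-0.18 ± 0.08, adjusted p = 0.0551), and did so without replicate 2 (-0.24 ± 0.08, adjusted p = 0.0122). Mafa did not pass (0.15 ± 0.23, adjusted p = 0.580), but did without replicate 4 (0.43 ± 0.17, adjusted p = 0.0412). Of 43 granule genes 19 rose and 9 fell, with Pcsk1 at 0.43 ± 0.06 and Chga at -0.36 ± 0.09. Of 19 disallowed genes 8 rose and 5 fell. Maf was lower by 1.63 ± 0.30, and Slc16a1 was higher by 0.29 ± 0.09, a call lost without the 1 h libraries (adjusted p = 0.0766). Aldh1a3 was at or below 0.348 CPM in both classes; its 3 counts in GFP replicate 1 are all from 1 h, and no fold is given. ER chaperones were split, with 6 of 19 higher and 9 lower.

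The counterpart, EIF2A replicate 1 against the GFP libraries of replicates 2 to 4, gave fewer and smaller differences: 3805 genes passed (27.4%), 1889 higher (13.6%) and 1916 lower (13.8%), and 121 (0.873%) by at least 2-fold. Without the 1 h libraries of replicate 1 it was 2376 genes. Eif2a did not pass, at 79.9, 96.7 and 105 CPM, against 78.1 to 102 CPM (0.07 ± 0.06, adjusted p = 0.439 by edgeR). Neither did Ins1 (-0.03 ± 0.09, adjusted p = 0.820), Hnf4a (0.14 ± 0.08) or Prlr (-0.08 ± 0.09). Ins2 was higher by 0.46 ± 0.08, Slc2a2 by 0.61 ± 0.09, Gcg by 0.52 ± 0.05 and Cck by 0.54 ± 0.06, and each lay above the GFP libraries of replicates 2 to 4 at every time. Glis3 (-0.69 ± 0.06), Glp1r (-0.57 ± 0.10) and Aldh1a3 (-0.90 ± 0.10) were lower; the last lost its call with DESeq2 (adjusted p = 0.0662).

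In the same comparison, 17 of 43 granule genes rose and 1 (Rph3al) fell, and 11 of 19 ER chaperones rose and none fell, with medians of 0.12 and 0.19. Among all genes, 13.6% rose and 13.8% fell. The largest rises were in Id1, Slc16a3, Sct, Ak4, Lfng, Bnip3, Id3 and Mgarp. Id1, an inhibitor of basic helix-loop-helix factors, had 76.1, 87.5 and 126 CPM in EIF2A replicate 1, against 17.0 to 48.2 CPM in GFP replicates 2 to 4 (median 26.0), a log2 difference of 1.73 ± 0.14. Sct, the hormone secretin, had 185, 140.0 and 127 CPM, against 33.7 to 72.5 CPM (1.49 ± 0.09). The largest drops were in Igfbpl1 (-1.48 ± 0.08), Hist1h1a, Banp, Hist1h1e, P3h2, Aldh1a3, Hist1h3d and Hs3st3b1. Histone genes such as Hist1h1a come in near-identical copies and mostly lack poly(A) tails, so their counts are uncertain.

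The size of the construct gap was compared as GFP minus EIF2A in replicate 1 less EIF2A minus GFP in replicates 2 to 4, which is 0 where a gap has turned its sign and kept its size. It differed from 0 for 6168 of 13867 genes (44.5%), 3187 above (23.0%) and 2981 below (21.5%). The Eif2a gap was larger in replicate 1 by 0.87 ± 0.08 (adjusted p = 4.65e-09 by edgeR). For genes lower in GFP of replicate 1, a negative value means a larger gap: Prlr was at -1.70 ± 0.14, Rab25 at -2.44 ± 0.33 and Bcat1 at -2.05 ± 0.25. For Ins1 (-0.71 ± 0.13), Ins2 (-0.47 ± 0.12) and Slc2a2 (-0.79 ± 0.12), which are higher in GFP of replicate 1, a negative value means a smaller gap there. Hnf4a (0.18 ± 0.10, adjusted p = 0.143), Pax6 (0.15 ± 0.08, adjusted p = 0.117) and Pdx1 (-0.06 ± 0.11, adjusted p = 0.681) did not pass, which does not show gaps of equal size. The highest values were in Nrk, Spred2, Irs2, Serpina1d, Gatm, Klhl24, Pfkfb3 and Ero1l. A value far from 0 also arises where a gap kept its sign, so the calls do not count changes of size alone. EIF2A minus GFP was -0.70 in replicate 1 and -0.77 in replicates 2 to 4 for Ero1l, and -0.73 and -0.81 for Pfkfb3. Irs2, an insulin receptor substrate, had 17.4, 29.5 and 28.1 CPM in EIF2A and 8.04, 14.9 and 17.8 CPM in GFP of replicate 1, against 3.31 to 7.78 CPM in EIF2A and 21.3 to 39.9 CPM in GFP of replicates 2 to 4.

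Finally, both constructs of replicate 1 together were set against both of replicates 2 to 4. Of 13867 genes 8323 passed (60.0%), 4110 higher (29.6%) and 4213 lower (30.4%), and 249 (1.80%) by at least 2-fold. The highest were Bnip3 (1.98 ± 0.05), Ak4, Slc16a3, Lfng, Mgarp, Ero1l, C1ql3 and Ldha (1.43 ± 0.08). Bnip3 had 288, 248 and 211 CPM in EIF2A replicate 1, which with the GFP values above put all 6 libraries over the 49.3 to 145 CPM of the other 18. The lowest were A930013F10Rik, Banp, Eme2, Meg3, Txnip, Hist1h1e, Hist1h4i and Ldlrad4. Txnip, a glucose-induced inhibitor of thioredoxin, had 33.3, 57.0 and 94.7 CPM in EIF2A and 23.4, 37.5 and 131 CPM in GFP of replicate 1, against 47.9 to 308 CPM in EIF2A and 38.4 to 202 CPM in GFP of replicates 2 to 4 (-1.04 ± 0.10). Ins1 was lower in replicate 1 by 0.39 ± 0.06, a value that averages both class comparisons above. It passed for GFP replicate 1 against EIF2A replicates 2 to 4, and did not pass for EIF2A replicate 1 against GFP replicates 2 to 4. Of 43 granule genes, 24 were higher and 8 lower. Replicate 1 is a single replicate, so these p-values do not measure the spread between replicates of its kind.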

How the data were processed

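The deposited table holds raw counts per gene, whole numbers, in 24421 genes and 24 libraries, and 2 lines without a gene: reads that fell outside genes and ambiguous reads. Both lines were left out of library sizes and tests; over the 24 libraries they took 10.7 to 17.9% and 0.518 to 0.592% of the reads. STAR, bcl2fastq and mm10 are named, with no role, per the submitters' processing notes; the library kit was stranded, per the labels' protocols. For the counting program, annotation and strand setting, nothing is given in the sources used here, and overlapping genes are uncertain. Groups came from the sample titles and columns from the sample descriptions.

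From the counts, edgeR 4.0.16 (R 4.3.3) was run per gene (TMM scaling, default filter with a minimum count of 10 and a total of 15, robust quasi-likelihood F test), adjusted by Benjamini-Hochberg over all genes tested, and called at an adjusted p under 0.05. EIF2A against GFP in replicate 1 used its 6 libraries with time as a block; the other contrasts used all 24 libraries with time and 4 classes (construct by replicate 1 or replicates 2 to 4). A fold change compares the group named first with the other. Lists are described by counts of calls. Fits were checked on simulated counts with the same spread for every gene, no time effect and few changed genes, unlike these data. Within replicate 1, 94.9% of simulated log2 changes of 1 and 74.5% of those of 0.5 were recovered. There were 8 false calls over 13447 genes. CPM use TMM-scaled library sizes; 3 counts were the detection floor. Reads carry no molecular identifiers, so counting intervals cover counting error only. P-values measure the spread between these libraries, which may be technical.

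The libraries, gene lists and tests were chosen with earlier results of these data known. Named genes are the 8 highest and 8 lowest of each contrast among called genes that average 5 CPM or more, with a symbol and without overlap at any time (overlap was not applied to the gap contrast), the 5 smallest p in each of 6 beta cell lists, and 23 genes taken in every contrast, the hormones and sensors Ins1, Ins2, Iapp, Ucn3, Slc2a2, G6pc2, Kcnj11, Abcc8, Glp1r and Ffar1 among them. Genes outside this rule are given as such, and a few genes are not reported here. Of the other lists, interferon response genes had 7 higher and 9 lower of 27 in EIF2A against GFP of replicate 1. Cell cycle genes had 13 and 9 of 29, initiator tRNA and eIF2 factors 7 and 3 of 19, and progenitor markers 6 and 2 of 10. Among all genes of that comparison 29.8% were higher and 28.9% lower, and no list was tested against these shares. Coordinates are from GENCODE M21 (GRCm38). Alternatives were DESeq2 1.42.0, RLE factors, library totals, no filter, other models, and leaving out libraries.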

Additional observations from a re-analysis of the deposited data

Results flagged for a closer look

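In the 18 groups of 4 libraries examined for a library far from the rest (3 measures in 6 groups), chance would flag about 1 in 20. Eif2a in replicate 1 stood apart at 268 CPM in GFP at 0 h, 363 CPM in GFP at 1 h, 360.4 CPM in GFP at 3 h and 79.9 CPM in EIF2A at 0 h. The other libraries of those groups lay at 78.1 to 102 CPM (GFP) and 133 to 210 CPM (EIF2A) over the 3 times. The share of reads outside any gene in replicate 1 stood apart at 12.04% in EIF2A at 0 h and 11.6% in EIF2A at 1 h, below the other EIF2A libraries of those times.

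The construct effect differed between replicate 1 and replicates 2 to 4 for 10124 genes by edgeR's quasi-likelihood test of the difference, and for Eif2a the difference was -2.75 on the log2 scale. The reads outside any gene, which enter no comparison of genes, had a median share of 15.2% in EIF2A replicates 2 to 4, above every library of the other classes. No explanation was tested for any of these values.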

How the results depend on the processing

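Genes that passed within replicate 1 numbered 6220 to 7488 when 1 time was left out (main 7939) and 5678 to 8285 under the other settings. GFP replicate 1 against EIF2A replicates 2 to 4 gave 7729 to 8782 with libraries left out and 8629 to 9107 otherwise (main 8817). EIF2A replicate 1 against GFP replicates 2 to 4 gave 2376 to 4516 and 3477 to 4354 (main 3805), and the lowest was without the 1 h libraries of replicate 1. The gap contrast gave 5073 to 6301 and 5813 to 6704 (main 6168), and replicate 1 against the rest gave 6861 to 8357 and 8096 to 8596 (main 8323). Of 2273 values of named genes under alternatives, 47 lost and 32 gained a call. None that was called in the main or the alternative fit turned sign. Sign changes of values called in neither fit were not counted. The distance ratio (other label over own label) was 0.365 for EIF2A and 0.643 for GFP of replicate 1, and 0.147 and 0.731 by 1 minus Spearman correlation. The median stress response at 3 h was 1.14 in EIF2A and 0.75 in GFP, and 1.22 and 0.86 on library totals. The cause of these shifts was not tested. Replicate numbers 2, 3 and 4 recur in every group. Same-numbered libraries correlated in their deviations from group means at 0.03 to 0.24, -0.06 to 0.09 and 0.03 to 0.30 for numbers 2, 3 and 4. These values are weak, but all are positive for numbers 2 and 4. The main fits did not take the numbers as pairs, and a block for replicate number was run as an alternative. With the replicate block, the gap contrast gave 6704 genes, 3485 above and 3219 below 0, of which 6157 were called without it, and its calls moved by less than 1.5 times. The block, added for them after seeing the data, gave 10406 genes for the difference of the construct effects (10124 without it, 10110 shared) and 11319 for EIF2A against GFP within replicates 2 to 4 (11119 without it, 11110 shared). No analysis paired by replicate number was possible for EIF2A against GFP within replicate 1, which is a single number and was paired by time. Nor was such pairing possible in the 3 contrasts that set libraries of replicate 1 against those of replicates 2 to 4 directly. There the block is confounded with replicate 1 against the rest.

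At these depths a gene at 1 CPM has about 11 to 22 counts, and the GFP level of genes such as Aldh1a3 and Ucn3 in replicate 1 rests on 3 and 13 counts.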
